A study of Rattus norvegicus with 18 samples.

Results

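Potassium channel genes were taken as the genes whose symbol starts with Kcn, with the exception of Kcnj10 and Kcnj13, and with a mean of at least 10 counts over the 18 libraries. Of the 30735 genes in the files, 92 carried such a symbol, 10 of these lay below the minimum and 2 were the exceptions, which left 80 genes. The members just inside the minimum were Kcnq1 with a mean of 10.6 counts and Kcna7 with 11.6, and the genes just outside were Kcnk16 with 8.17 and Kcnj15 with 8.11. The rule reads the mean over all libraries and no difference between groups. All 80 members also passed the filter of the test across genes. They fall into 20 subfamilies by the letters after Kcn, and by their role into 27 voltage-gated pore subunits, 10 electrically silent subunits, 11 inward rectifiers, 11 tandem-pore channels, 7 pores opened by calcium or sodium, and 14 auxiliary subunits.

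The study followed the rat cerebral cortex after subarachnoid hemorrhage (SAH), a bleed into the fluid space around the brain. Adult Sprague Dawley rats had an artery at the base of the brain perforated by a filament passed up the internal carotid artery, and cortex was taken 1 day (SAH 1d) or 7 days (SAH 7d) later. Sham rats had the same anesthesia and surgery without the perforation, and neither the day on which their cortex was taken nor the sex of any rat was found in the labels or methods. Each group has 6 rats with 1 library per rat. The model leaves the extent of the bleed to vary between animals, and the tissue is described both as the whole cortex of the operated side and as the cortex of both sides. Levels are given within a gene as CPM, which are counts scaled to the size of the library with TMM factors, and as the authors' FPKM, which is per length, between genes.

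Potassium channels let potassium leave or enter the cell along its gradient, which sets the resting potential, ends the action potential and limits repetitive firing. Pores of the voltage-gated families open on depolarization, inward rectifiers and tandem-pore channels carry current near rest, and calcium- or sodium-activated channels couple firing to the ions it brings in. Silent subunits form no channel alone but change the pores they join, and auxiliary subunits alter traffic and gating. In cortex most of these genes are used by neurons, whereas a few serve microglia, vessels or the epithelium of the choroid plexus.

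Total counts ranged from 27270026 to 38271014 per library. The neuron, astrocyte and oligodendrocyte markers were detected in every library, as cortex would have. SAH 1d-3 and SAH 7d-5 stood apart from their groups. The median member differed from its sham mean by -0.67 on the log2(CPM + 1) scale in SAH 1d-3, against -0.21 to -0.30 in the other SAH 1d libraries. In SAH 7d-5 it differed by -1.15, against 0.02 to -0.34 in the other SAH 7d libraries. SAH 7d-5 also had the lowest summed level of 8 neuron markers, 2731 CPM against 7491 to 9888 CPM in the rest of its group, and the highest sums of the microglia, macrophage, neutrophil, T cell and meningeal fibroblast markers. SAH 1d-4 and SAH 1d-6 held choroid plexus markers at a sum of 716 and 1038 CPM, where the other 16 libraries had at most 64.9 CPM. Values without these libraries are given where a result below rests on them. A lower level in bulk cortex can come from fewer cells of a type or from less RNA per cell, which cannot be told apart here.

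**Figure D1:**
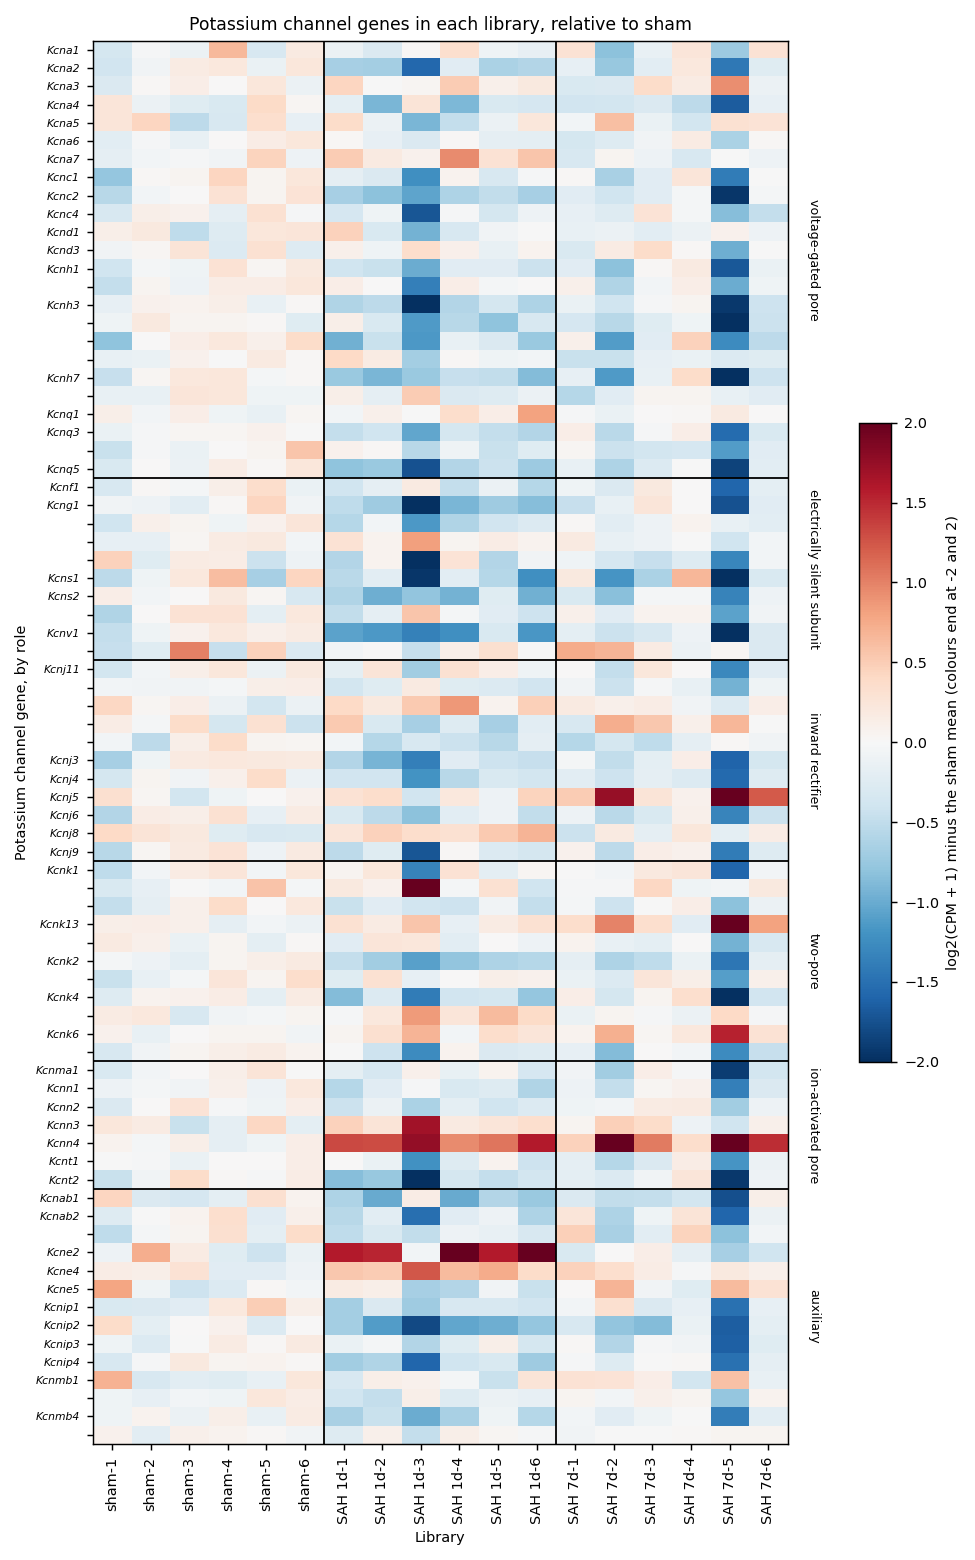
Heatmap of 77 of the 80 potassium channel genes (vertical axis, grouped by role, with those named in the text labelled) in the 18 libraries (horizontal axis), coloured by log2(CPM + 1) minus the mean of the 6 sham libraries, with colours ending at -2 and 2. Most genes are pale to mid blue in the SAH 1d columns, SAH 1d-3 and SAH 7d-5 are the darkest blue columns, and Kcnn4 and Kcne2 are the darkest red rows at SAH 1d.

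At 1 day after SAH the potassium channel genes were mostly lower than in sham cortex. Of the 80 members, 24 fell and 4 rose at an adjusted p under 0.05, which is 35.0% of them, where the same test called 25.4% of the 18444 genes tested. The lower calls make up 30.0% of the members against 10.5% of all genes, and the higher calls 4 of 80 members against 14.9% of all genes. The log2 fold change lay below 0 for 62 of the 80 members, with a median of -0.35, where the median of all tested genes was 0.01. The falls were moderate: only Kcnip2 and Kcnv1 fell by 2-fold or more (1.06% of all genes did), whereas all 4 rises, in Kcnn4, Kcne2, Kcna7 and Kcne4, were of that size (5.57% of all genes). All 6 SAH 1d libraries lay below all 6 sham libraries in 8 members and above them in 2, against 5.41% and 7.89% of all genes. Without SAH 1d-3, 27 members fell and 4 rose, which is 38.75% of the members against 28.5% of all genes. On the FPKM scale, which lacks the TMM factors, limma called 14 lower and 5 higher of the 72 members tested, which is 26.4% against 28.9% of all genes, so the share of members called was not above that of all genes there. With all 18 libraries in 1 fit it was 13.8% of the members against 13.3% of all genes.

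**Figure D2:**
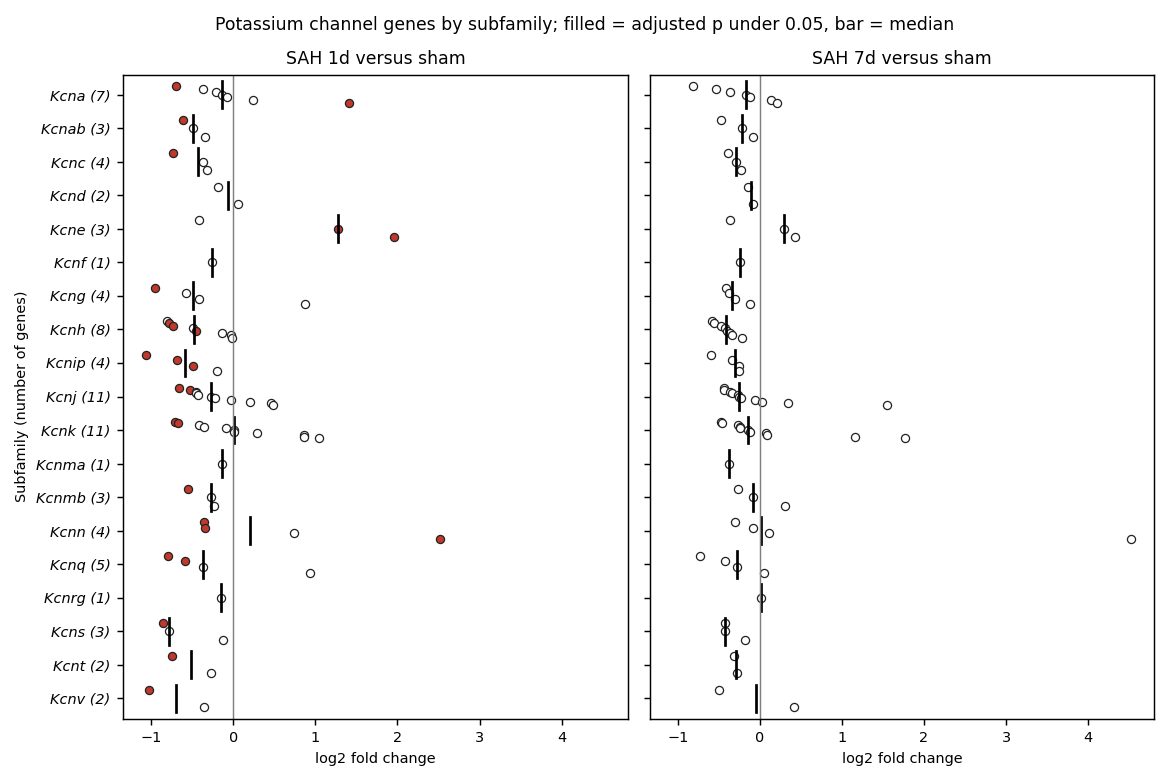
The log2 fold change (horizontal axis) of 77 of the 80 potassium channel genes, by subfamily (vertical axis, number of genes in brackets), for SAH 1d versus sham on the left and SAH 7d versus sham on the right. Filled points passed an adjusted p of 0.05 and bars are medians over all members of a subfamily. At SAH 1d 26 points are filled, 22 of them left of 0, and at SAH 7d none is.

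The falls sat among the abundant members. Of the 33 members with a mean sham FPKM of at least 10, 19 fell, none rose, and 32 had a log2 fold change below 0, with a median of -0.49. Of the 28 members with a mean sham FPKM under 3, 4 rose and none fell, with a median of 0.22. The sham libraries enter both the level and the fold change, and a low count gives the test less power, so the split is a description. The shares of all genes called at these levels were not computed. The neuron markers moved with the falls. All 8 of them fell (Snap25, Syt1, Rbfox3, Map2, Stmn2, Nefl, Eno2 and Syp), with a median log2 fold change of -0.54, and their summed level ranged from 7289 to 10584 CPM in sham and from 5539 to 6873 CPM at SAH 1d. Of 6 interneuron markers 2 fell. Of 6 striatal markers 2 fell as well, with sums of 357 to 1535 CPM in sham and 151 to 690 CPM at SAH 1d. The part of these in the falls of the channel genes was not tested.

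Among the voltage-gated pores 9 of 27 fell and 1 rose, with a median log2 fold change of -0.37. Kcna2, an axonal channel and the most abundant Kcna member at 26.6 ± 4.47 FPKM in sham (± SD, n = 6), had a lowest, median and highest level of 245, 332 and 375 CPM in sham and of 107, 204 and 274 CPM at SAH 1d. It fell by 0.69 ± 0.18 on the log2 scale (± SE throughout, adjusted p = 0.0139), with overlap, while Kcna1, Kcna3, Kcna4, Kcna5 and Kcna6 did not pass the test. Kcna2 made up 39.6% ± 3.91 of the summed Kcna FPKM in sham and 30.8% ± 6.15 at SAH 1d (± SD, n = 6).

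The Kcnc genes encode fast channels that let interneurons fire at high rates. Kcnc2 had 79.2, 120 and 143 CPM in sham and 56.2, 74.1 and 83.1 CPM at SAH 1d, and fell by 0.74 ± 0.14 (adjusted p = 0.00241). A single sham library, sham-1, lay within the SAH 1d range. Kcnc1 and Kcnc4 lay below 0 without passing.

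The Kcnq genes carry the M-current, a slow brake on repetitive firing. Kcnq5, at 26.9 ± 3.91 FPKM the most abundant of them, had 150, 187 and 217 CPM in sham and 54.8, 111 and 137 CPM at SAH 1d. Every SAH 1d library lay below every sham library, and Kcnq5 fell by 0.80 ± 0.17 (adjusted p = 0.00603). Its partner Kcnq3 fell by 0.59 ± 0.12 (adjusted p = 0.00444), also without overlap.

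All 8 Kcnh members, the ether-à-go-go family, had a log2 fold change below 0 and 3 were called. Kcnh7 had 9.13, 13.3 and 15.5 CPM in sham and 6.44, 7.39 and 9.16 CPM at SAH 1d, overlapping by the lowest sham library alone, and fell by 0.78 ± 0.14 (adjusted p = 0.00216). Kcnh3, at 34.8 ± 3.38 FPKM the most abundant Kcnh member, had 124, 143 and 151 CPM in sham and 25.9, 91.1 and 108 CPM at SAH 1d. The groups did not overlap and Kcnh3 fell by 0.73 ± 0.24 (adjusted p = 0.0423), with SAH 1d-3 as the low library. With single libraries left out, the call of Kcnh3 was kept in 3 of 12 fits, those without SAH 1d-3, SAH 1d-5 or sham-1. Kcnh1 was the other Kcnh gene called. Kcnh7 overlaps Gca and Kcnh3 overlaps Mcrs1 in the rat annotation. The library kit named in the labels does not mark strand, so reads of the overlap cannot be assigned. The same limit holds for Kcnab2 with Nphp4, Kcnj9 with Igsf8, and Kcnip4, Kcnn2 and Kcnt2 with loci named as pseudogenes. Further members, such as Kcnq5 and Kcnk2, overlap loci with provisional LOC names. Kcnd3, a pore of the transient A-type current, was at 71.9 CPM in sham and 77.0 CPM at SAH 1d (medians), with a log2 fold change of 0.06 ± 0.12 (adjusted p = 0.75).

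Kcna7 was the only pore of this class that rose, and it was near the bottom of the measured range. It had 0.0999, 0.196 and 0.695 CPM in sham and 0.330, 0.654 and 1.396 CPM at SAH 1d, which is 3 to 21 counts against 13 to 39 counts per library. The groups overlapped through sham-5, and the log2 fold change was 1.41 ± 0.49 (adjusted p = 0.048). The call was kept in 3 of 12 fits with 1 library left out, those without SAH 1d-2, SAH 1d-3 or sham-5.

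Of the 10 silent subunits 3 fell and none rose, with 9 below 0 and a median of -0.49, the lowest among the roles. Kcnv1, at 31.2 ± 5.596 FPKM the most abundant silent subunit, had 96.0, 144 and 156 CPM in sham and 52.4, 59.8 and 109 CPM at SAH 1d. In all, 5 of the 6 SAH 1d libraries lay below every sham library and SAH 1d-5, at 109 CPM, lay within the sham range. Kcnv1 fell by 1.03 ± 0.18 (adjusted p = 0.00163). Kcng1 had 21.9, 24.2 and 34.7 CPM in sham and 4.84, 14.4 and 17.6 CPM at SAH 1d, with no overlap, and fell by 0.96 ± 0.24 (adjusted p = 0.0112). Kcns2 had 6.38, 8.36 and 9.61 CPM in sham and 3.66, 4.05 and 6.78 CPM at SAH 1d, and fell by 0.86 ± 0.17 (adjusted p = 0.00358). Its relative Kcns1 differed by -0.79 ± 0.31 but spread from 13.9 to 35.3 CPM among sham rats (adjusted p = 0.0806). Kcnf1 was at -0.25 ± 0.14 (adjusted p = 0.199). Kcnv1, Kcng1 and Kcns2 were called in all 25 alternatives run.

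**Figure D3:**
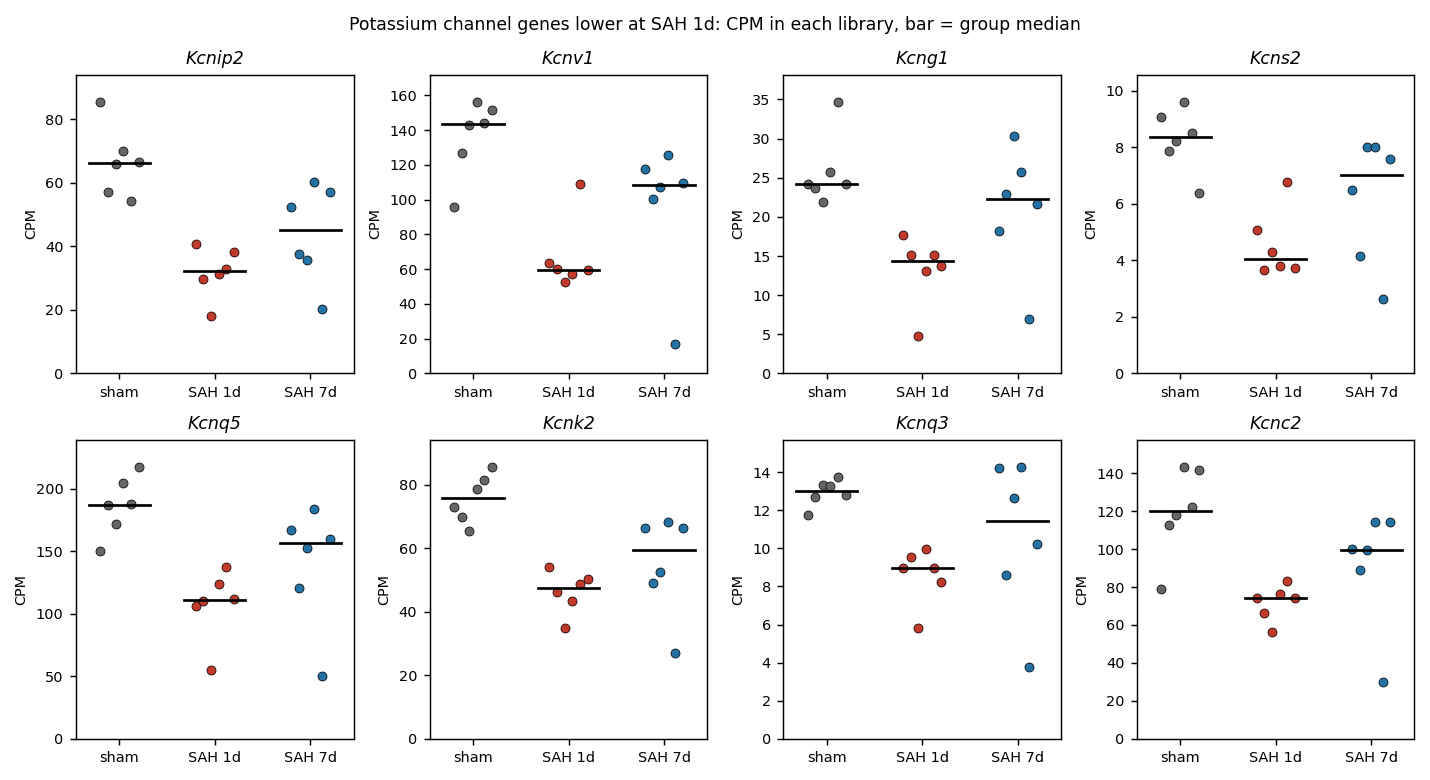
CPM (vertical axes, from 0) of 8 potassium channel genes that were lower at SAH 1d, with 1 point per library of each group and bars at group medians. SAH 1d medians lie below sham medians in all 8 panels, such as 32.2 against 66.3 CPM for Kcnip2, SAH 7d medians lie between, and the lowest SAH 7d point in each panel is SAH 7d-5.

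Of the 11 inward rectifiers 2 fell, none rose, and 8 lay below 0. Kcnj4, a strong rectifier of forebrain neurons and the most abundant Kcnj member at 29.8 ± 6.06 FPKM, had 65.5, 83.6 and 109 CPM in sham and 36.0, 63.9 and 67.5 CPM at SAH 1d. It fell by 0.53 ± 0.15 (adjusted p = 0.0231). Kcnj3, the common subunit of channels opened by G proteins, fell by 0.66 ± 0.20 (adjusted p = 0.0251). Of its partners, Kcnj6 and Kcnj9 were lower at the median, 9.27 against 13.8 CPM and 54.9 against 73.7 CPM, without passing the test. Kcnj5, a further G protein-gated subunit, was not lower, with 1.78 to 3.50 CPM in sham and 1.78 to 3.91 CPM at SAH 1d, and was not called. Kcnj8, the pore of the ATP-sensitive channel of mural cells, lay above sham at the median, with 5.39, 6.91 and 9.53 CPM in sham and 8.39, 9.57 and 11.7 CPM at SAH 1d. Its log2 fold change of 0.46 ± 0.16 missed the threshold (adjusted p = 0.0544), and the 6 mural cell markers summed to 133 to 237 CPM in sham and 141 to 158 CPM at SAH 1d. Kcnj11, the neuronal pore of the same kind, had a median of 35.1 CPM in sham and 35.0 CPM at SAH 1d.

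The tandem-pore genes were divided, with 6 members above 0, 5 below, and a median of 0.00. Both calls were falls, in Kcnk2 and Kcnk4, and the other 9 members were not called. Kcnk2 had 65.3, 75.7 and 85.6 CPM in sham and 35.0, 47.5 and 54.1 CPM at SAH 1d. The groups did not overlap, and Kcnk2 fell by 0.71 ± 0.10, with the smallest adjusted p of all falls (0.000667). Kcnk4 fell by 0.68 ± 0.18 (adjusted p = 0.0176), also without overlap. Kcnk1, at 45.7 ± 8.62 FPKM the most abundant tandem-pore gene, was at -0.09 ± 0.22 (adjusted p = 0.795). Kcnk6 had 0.138, 0.282 and 0.333 CPM in sham and 0.215, 0.530 and 1.01 CPM at SAH 1d, with a log2 fold change of 1.05 ± 0.39 that did not pass (adjusted p = 0.0622).

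Among the 7 pores opened by calcium or sodium 3 fell and 1 rose. Kcnn4, the intermediate-conductance calcium-activated channel known from red cells, lymphocytes and activated microglia, rose more than any other member. It had 0.309, 0.508 and 0.628 CPM in sham and 1.86, 2.70 and 4.03 CPM at SAH 1d. The lowest SAH 1d library was well above the highest sham library. The rise was 5.72-fold, or 2.51 ± 0.26 on the log2 scale (adjusted p = 5.43e-05). It was 2.38 ± 0.24 without SAH 1d-3, the highest library. Over the same groups the microglia markers summed to 163 to 297 CPM and 237 to 317 CPM, but their members differed: of the 6, Itgam rose by 2.72 ± 0.21 (adjusted p = 9.9e-06) and P2ry12 fell by 1.19 ± 0.35 (adjusted p = 0.0251). The 5 monocyte and macrophage markers summed to 12.4 to 30.2 CPM and 30.4 to 168 CPM, and 3 of them rose. The sum of 168 CPM was that of SAH 1d-3, and the other SAH 1d libraries had at most 44.9 CPM. The 5 neutrophil markers summed to 1.92 to 5.59 CPM in sham and 6.69 to 71.1 CPM at SAH 1d, without overlap. Of the 3 tested, 2 rose. The sum of 71.1 CPM was again that of SAH 1d-3, and the other SAH 1d libraries had at most 15.4 CPM. The 5 red cell markers summed to 13.3 to 109 CPM in sham and 52.0 to 189 CPM at SAH 1d, and none of them rose. The part of these cells in the Kcnn4 level was not tested.

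Among the neuronal relatives of Kcnn4, Kcnn1 and Kcnn2 fell and Kcnn3 was not called. Kcnn3 was at 14.2 CPM in SAH 1d-3 and at 4.37 to 5.49 CPM in the other SAH 1d libraries, where sham had 2.46 to 5.33 CPM. Kcnn2, a small-conductance channel of the after-hyperpolarization and the most abundant Kcnn gene at 11.9 ± 1.72 FPKM, had 17.95, 22.1 and 26.98 CPM in sham and 14.0, 17.5 and 20.4 CPM at SAH 1d, and fell by 0.36 ± 0.11 (adjusted p = 0.036). That call was kept in 4 of 12 fits with 1 library left out, those without SAH 1d-2, SAH 1d-3, SAH 1d-4 or sham-1. Kcnn4 made up 1.12% of the summed Kcnn FPKM in sham and 7.30% at SAH 1d. Of the sodium-activated pair, Kcnt2 had 40.9, 56.1 and 72.9 CPM in sham and 12.4, 36.4 and 43.9 CPM at SAH 1d, with overlap, and fell by 0.75 ± 0.24 (adjusted p = 0.0378). The call of Kcnt2 was kept in 5 of the 12 fits, those without sham-1, SAH 1d-3, SAH 1d-4, SAH 1d-5 or SAH 1d-6. Kcnt1 was at -0.27 ± 0.17 (adjusted p = 0.249). Kcnma1, the pore of the large-conductance calcium-activated channel, was at -0.14 ± 0.11 (adjusted p = 0.368).

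Of the 14 auxiliary subunits 5 fell and 2 rose, and the largest fall of the family was among them. Kcnip2, a calcium-binding partner of the A-type pores, had 54.3, 66.3 and 85.5 CPM in sham and 18.2, 32.2 and 40.9 CPM at SAH 1d. No library of either group reached the other. The level fell by 1.06 ± 0.17 on the log2 scale (adjusted p = 0.0011), which is 2.09-fold. Of its relatives, Kcnip4 had 85.6, 111 and 122 CPM in sham and 35.2, 68.2 and 86.6 CPM at SAH 1d and fell by 0.68 ± 0.17 (adjusted p = 0.012), Kcnip1 fell too, and Kcnip3 was not called. Kcnip1 overlaps Kcnmb1 in the rat annotation. The A-type pores Kcnd1, Kcnd3 and Kcna4 were not called. Kcnd2 was not among the members, so the A-type pores are covered only in part. In levels per length Kcnip2 was at 31.0 ± 4.85 FPKM against 10.1 ± 1.94 FPKM for Kcnd3 in sham, and at 16.1 ± 3.97 against 11.4 ± 1.37 FPKM at SAH 1d (± SD, n = 6).

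Kcnmb4, the brain form of the subunit that slows calcium-activated pores, had 50.6, 56.2 and 63.1 CPM in sham and 27.8, 36.7 and 53.0 CPM at SAH 1d, and fell by 0.55 ± 0.13 (adjusted p = 0.00834). The cytoplasmic beta subunits of the Kcna pores include the most abundant gene of the family, Kcnab2, at 78.3 ± 13.0 FPKM in sham. Kcnab2 had 110, 134 and 167 CPM in sham and 45.8, 101 and 122 CPM at SAH 1d, with a log2 fold change of -0.49 ± 0.19 that did not pass (adjusted p = 0.0802). Kcnab1 fell, at an adjusted p of 0.0422. Kcnrg, a regulator of channel assembly, was at -0.15 ± 0.26 (adjusted p = 0.698).

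The Kcne genes encode small subunits with a single transmembrane segment, and 2 of the 3 members rose. Kcne2, which is abundant in the choroid plexus epithelium, had 1.72, 2.36 and 5.01 CPM in sham and 2.49, 9.91 and 18.2 CPM at SAH 1d, a rise of 3.90-fold or 1.96 ± 0.39 on the log2 scale (adjusted p = 0.00375). SAH 1d-3, at 2.49 CPM, lay within the sham range, and the other SAH 1d libraries lay above it. The top levels of 14.7 and 18.2 CPM were those of SAH 1d-4 and SAH 1d-6, the libraries with the high choroid plexus sums. In SAH 1d-1, SAH 1d-2 and SAH 1d-5, Kcne2 was at 9.93, 9.48 and 9.89 CPM while the choroid plexus markers summed to 32.6, 13.1 and 2.76 CPM. Without SAH 1d-4 and SAH 1d-6 the rise was 1.52 ± 0.39 (adjusted p = 0.0204). Kcne4, an inhibitor of several pores, had 0.494, 0.763 and 1.14 CPM in sham and 1.26, 1.63 and 3.12 CPM at SAH 1d, with no overlap, and rose 2.42-fold (log2 fold change 1.27 ± 0.29, adjusted p = 0.00747). Kcne5 was at -0.42 ± 0.34 (adjusted p = 0.384).

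**Figure D4:**
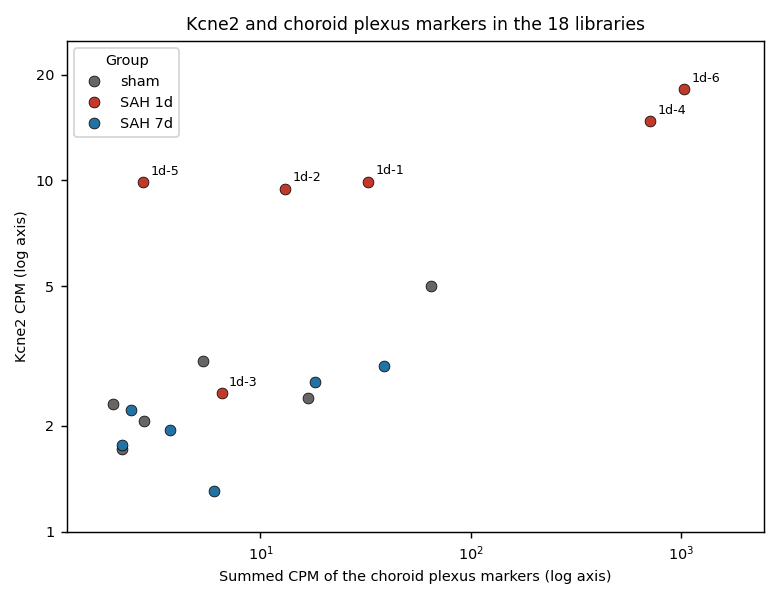
Kcne2 in CPM (vertical log axis) against the summed CPM of 5 choroid plexus markers (horizontal log axis) in each of the 18 libraries, coloured by group, with the SAH 1d libraries named. SAH 1d-4 and SAH 1d-6 are at the far right with sums of 716 and 1038 CPM, and SAH 1d-1, SAH 1d-2 and SAH 1d-5 hold Kcne2 between 9.48 and 9.93 CPM at sums of 2.76 to 32.6 CPM.

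The 250 bases before the transcription start of Kcnip2 and Kcne4 are shown because these are the largest fall and a non-overlapping rise among the auxiliary subunits, and because of the 6 members changed by 2-fold only these 2 had an entry in the RefSeq table. They are from the rat build GRCr8, chr1:254613899-254614148 on the minus strand for Kcnip2 and chr9:87695798-87696047 on the plus strand for Kcne4, written 5′ to 3′ along the gene. Capitals mark matches, on either strand, to the GC box (GGGCGG), the cyclic AMP response element (TGACGTCA), the AP-1 site (TGANTCA) and the E-box (CACGTG).
Kcnip2: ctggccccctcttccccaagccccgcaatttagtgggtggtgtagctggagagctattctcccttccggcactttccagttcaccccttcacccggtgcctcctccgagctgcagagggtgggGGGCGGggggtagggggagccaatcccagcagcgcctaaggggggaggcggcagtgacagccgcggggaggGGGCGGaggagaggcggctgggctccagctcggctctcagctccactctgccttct
Kcne4: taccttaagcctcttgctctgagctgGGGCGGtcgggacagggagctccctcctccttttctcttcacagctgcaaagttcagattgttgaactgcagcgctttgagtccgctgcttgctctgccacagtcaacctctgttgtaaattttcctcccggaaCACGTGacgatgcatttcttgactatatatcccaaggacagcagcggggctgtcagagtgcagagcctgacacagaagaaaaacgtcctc
The Kcnip2 stretch held 2 GC boxes, and that of Kcne4 1 GC box and 1 E-box. A GC box was present in 28 of the 51 members with an entry (54.9%) and in 32.4% of all 27457 promoters of that length, in 7 of the 14 matched members that fell, and in 20 of the 36 that were not called. No member had the cyclic AMP response element, which 1.70% of all promoters hold, and 1 had an AP-1 site against 6.36%. None of these motifs overlaps another by its letters, and a match is a description of the sequence only.

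Genes outside the Kcn prefix that work with these channels were listed as well: 19 in all, of which 18 were in the files and 16 were tested. At SAH 1d 4 of these 16 fell and 1 rose, where 10.5% of all genes fell and 14.9% rose. The falls were the A-type pore partners Dpp6 (-0.59 ± 0.15, adjusted p = 0.014) and Dpp10 (-0.54 ± 0.19, adjusted p = 0.0488), and the partners of the Kcna complex Lgi1 (-0.61 ± 0.14, adjusted p = 0.00701) and Adam22 (-0.44 ± 0.15, adjusted p = 0.0498). Lgi1 and Adam22 were 2 of the 4 Kcna complex partners tested. Both listed transmembrane partners of the A-type pores were lower at SAH 1d, as were Kcnip2, Kcnip4 and Kcnip1. Kcnip3 and the A-type pores Kcnd1, Kcnd3 and Kcna4 were not called. Hcn4, a hyperpolarization-activated channel that also passes potassium, had 4.29, 5.001 and 9.03 CPM in sham and 9.71, 11.7 and 40.2 CPM at SAH 1d and rose by 1.47 ± 0.36 (adjusted p = 0.0103). Abcc8 and Abcc9, the regulatory subunits of the ATP-sensitive channels, were not called.

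Between 1 and 7 days 1 member changed. Kcne2 fell by 2.33 ± 0.38 on the log2 scale (adjusted p = 0.0117), which is 5.02-fold, where 1.37% of all genes were called and 1.08% were called lower. It had 1.301, 2.09 and 2.97 CPM at SAH 7d, against 2.49, 9.91 and 18.2 CPM at SAH 1d, and only SAH 1d-3 lay within the SAH 7d range. Without SAH 1d-4 and SAH 1d-6 the fall was 1.88 ± 0.37 and no longer passed (adjusted p = 0.0668). Kcna7 and Kcnj8 were lower in every SAH 7d library than in any SAH 1d library, as 2.11% of all genes were, without passing the test (adjusted p = 0.132 for each). Kcna7 had no count in 2 SAH 7d libraries and at most 0.303 CPM in the others, and Kcnj8 had 4.91, 6.92 and 8.28 CPM at SAH 7d.

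The abundant members lay, at the median, higher at 7 days than at 1 day, without a call in the full comparison. Of the 33 members with a mean sham FPKM of at least 10, 25 had a log2 fold change above 0 from SAH 1d to SAH 7d, with a median of 0.23. All 80 members had a median of 0.12, and all tested genes 0.03. This comparison depended on the libraries that stand apart. With SAH 1d-3 and SAH 7d-5 both left out, 9 members rose and 2 fell. These are 13.75% of the members against 13.6% of all genes, so the share of members called was near that of all genes. Among the rises were Kcnc2 by 0.46 ± 0.08 (adjusted p = 0.00442), Kcng1 by 0.66 ± 0.14 (adjusted p = 0.00863) and Kcnv1 by 0.68 ± 0.16 (adjusted p = 0.0179). Leaving out SAH 7d-5 alone gave 2 rises, in Kcnc2 and Kcnv1, and the fall of Kcne2. That is 3.75% of the members, below the 8.38% of all genes called in that fit.

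At 7 days against sham edgeR called no member, and it called 0.0% of all genes. At an unadjusted p under 0.05 there were 8 members, of the 80, against 15.4% of all genes. The log2 fold change lay below 0 for 63 of the 80 members, with a median of -0.26, and for all 33 members with a mean sham FPKM of at least 10. Without SAH 7d-5 the median was -0.11 and still no member was called. Kcnip2, with 20.4, 45.0 and 60.2 CPM at SAH 7d, was at -0.60 ± 0.22 (adjusted p = 0.27), and Kcnk2 at -0.46 ± 0.19 (adjusted p = 0.286). The neuron markers summed to 2731 to 9888 CPM at SAH 7d, with none called. Comparisons of both time points with sham use the same sham rats, so their values are set side by side only.

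The members with the smallest unadjusted p at 7 days all lay above sham, and they were low genes with a wide spread. Kcnn4 had 0.890, 2.60 and 54.7 CPM at SAH 7d, and all 6 libraries lay above the highest sham library at 0.628 CPM, as 0.797% of all genes did. Its log2 fold change was 4.53 ± 1.06 (adjusted p = 0.214) and 2.45 ± 0.47 without SAH 7d-5 (adjusted p = 0.106). DESeq2 called it with SAH 7d-5 (adjusted p = 7.46e-05) and without it (adjusted p = 0.000292). DESeq2 called 2.5% of the members in this comparison, against 2.49% of all genes. On simulated counts of 18444 genes for this comparison DESeq2 made 63 false calls, where edgeR made 10. Those counts held no library that stands apart, so they cannot judge the Kcnn4 call. Kcnj5, a G protein-gated subunit, had 1.78, 2.65 and 3.50 CPM in sham and 2.81, 5.80 and 17.6 CPM at SAH 7d, with overlap. Its log2 fold change was 1.55 ± 0.42 (adjusted p = 0.214) and 1.14 ± 0.33 without SAH 7d-5 (adjusted p = 0.169). DESeq2 called it (adjusted p = 0.0179, and 0.0328 without SAH 7d-5). Kcnk6 had 0.290, 0.489 and 2.63 CPM at SAH 7d and a log2 fold change of 1.77 ± 0.56 (adjusted p = 0.223), which was 1.05 ± 0.40 without SAH 7d-5 (adjusted p = 0.301).

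These genes shared their top libraries. SAH 7d-5, SAH 7d-2 and SAH 7d-6 were the 3 highest SAH 7d libraries, in that order, for Kcnn4 (54.7, 6.25 and 3.13 CPM), Kcnj5 (17.6, 11.05 and 7.46 CPM) and Kcnk6 (2.63, 1.06 and 0.533 CPM). Kcnk13, a tandem-pore channel of microglia that was picked after its values were seen, had the same order at 21.8, 8.56 and 7.46 CPM. The 6 microglia markers summed to 2117, 803 and 585 CPM in those libraries, and to 213 to 315 CPM in the other SAH 7d libraries. The summed T cell markers were 320, 35.6 and 36.2 CPM there and at most 14.0 CPM in the rest of the group. Astrocyte, endothelial and neutrophil sums were also highest in these libraries. The astrocyte sums were 4646, 5506 and 4300 CPM there and 2552 to 3277 CPM in the rest. The macrophage and meningeal fibroblast sums of SAH 7d-6, 33.2 and 201 CPM, lay below those of SAH 7d-3, 40.8 and 276 CPM. The part of these cells in the levels was not tested.

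**Figure D5:**
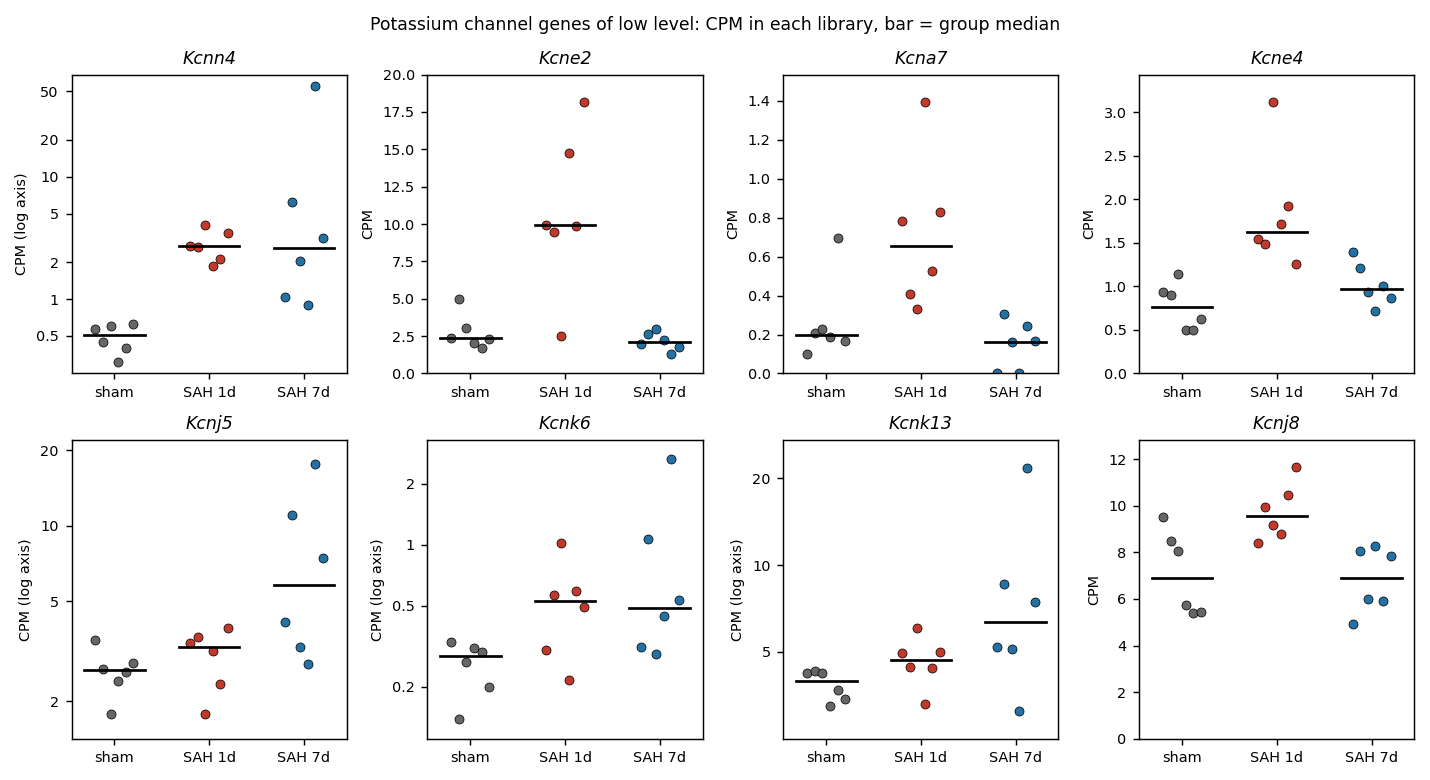
CPM of 8 potassium channel genes of low level (vertical axes from 0, or log axes for Kcnn4, Kcnj5, Kcnk6 and Kcnk13), with 1 point per library in each group and bars at group medians. Kcnn4 is above every sham library in all 12 SAH libraries, the SAH 1d medians of Kcne2 and Kcna7 are the highest of the 3 groups, and the highest SAH 7d point of Kcnn4, Kcnj5, Kcnk6 and Kcnk13 is SAH 7d-5.

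Across the subfamilies the summed FPKM showed the same order in the 3 groups, with sham above SAH 7d above SAH 1d, for the most abundant ones. The Kcnab sum was 147 ± 11.2 in sham, 110 ± 8.97 at SAH 1d and 123 ± 41.3 at SAH 7d (± SD, n = 6). The Kcnip sum was 139 ± 11.7, 102 ± 18.3 and 112 ± 32.8, and the Kcnj sum 118 ± 17.6, 97.0 ± 18.1 and 99.9 ± 23.8. The SD at SAH 7d is the largest of the groups in each, and the lowest SAH 7d value of the Kcnab sum, 50.5, compares with a median of 137. The Kcne sum went the other way, with 5.55 ± 1.59 in sham, 11.7 ± 2.33 at SAH 1d and 6.53 ± 1.56 at SAH 7d. The Kcnd sum differed by less than its spread, with 12.2 ± 2.004, 13.4 ± 1.32 and 11.8 ± 2.69.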

How the data were processed

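RNA-seq libraries were made from the cortex of 18 rats, 6 per group (sham, SAH 1d, SAH 7d). Per the labels, libraries were made with the NEBNext Ultra RNA kit, and the submitters' processing notes name fastp, HISAT2 and DESeq2 1.16.1. The authors aligned the reads to Rnor_6.0, whereas the labels name a mouse build; the files carry rat gene identifiers. The deposited counts are whole reads per gene and library that are not normalized, and the deposited FPKM values were scaled by the authors to transcript length and mapped reads. The counting program is not given in the sources used here. Libraries were assigned by column names, which equal their descriptions.

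Counts were tested with edgeR 4.0.16 in R 4.3.3, using filterByExpr on all 18 libraries (18444 genes), TMM factors and the two-sided quasi-likelihood F test with default settings on the 12 libraries of each comparison. Adjusted p-values are Benjamini-Hochberg values over all tested genes, and a gene was called, and is said to rise or fall, below 0.05. The SE of a log2 fold change is its size divided by the square root of F. CPM used TMM effective library sizes over all libraries. Libraries were treated as separate animals, and no library pair had identical counts. On simulated counts with 200 changed genes, the test of SAH 1d versus sham recovered 92.0% of 4-fold and 69.0% of 2-fold changes. That of SAH 7d versus sham recovered 78.0% and 52.0% with 10 false calls, where DESeq2 recovered 88.0% and 68.0% with 63. The simulation drew each gene by itself, changed far fewer genes than were called at SAH 1d, and held no library that stands apart. Recovery in the real counts can therefore differ. Errors reflect variation among rats, since reads are not independent molecules. Depth was 27270026 to 38271014 total counts per library.

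The members and gene lists were chosen with earlier results of these data known. Genes named are, in each comparison, up to 10 of the largest rises and falls called, every member called with a 2-fold change, the member of each subfamily with the highest sham FPKM, and the 3 smallest p-values where none was called. Other members named with values (Kcnj3, Kcnj6, Kcnj8, Kcnj9, Kcnj11, Kcnk4, Kcnk13, Kcnn3, Kcnq3) were picked after their values were seen. Values of 3 members are not reported here, though they count in the totals. Overlaps of genes are from RefSeq on GRCr8. Alternatives were DESeq2 1.42.0 (test and size factors), limma 3.58.1 on voom weights and on log2(FPKM + 1) or log2(FPKM + 0.1), a robust fit, all 18 libraries in 1 fit, other filters, the replicate number as a block, and each library left out. Leaving out SAH 1d-4 with SAH 1d-6, and DESeq2 without SAH 7d-5, were chosen after seeing the data.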

Additional observations from a re-analysis of the deposited data

Results flagged for a closer look

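For 31 named genes, the library at each end of each group was compared with the rest of the group by Dixon's test at its 95% critical value. Of 93 gene groups 17 had a library that stood off, where chance gives about 1 in 20. SAH 7d-5 accounted for 9. It was the lowest of its group for Kcnc2 (29.8 CPM), Kcnh3 (35.5 CPM), Kcnip4 (37.4 CPM), Kcnj4 (27.8 CPM), Kcnk1 (39.2 CPM), Kcnmb4 (21.0 CPM) and Kcnv1 (17.0 CPM), and the highest for Kcnk6 (2.63 CPM) and Kcnn4 (54.7 CPM). SAH 1d-3 was the lowest of its group for Kcng1 (4.84 CPM), Kcnh3 (25.9 CPM) and Kcnj4 (36.0 CPM) and the highest for Kcne4 (3.12 CPM). The other high libraries were SAH 1d-5 for Kcnv1 (109 CPM), sham-1 for Kcne5 (3.997 CPM), and sham-5 for Kcna7 (0.695 CPM) and Kcng1 (34.7 CPM).

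Kcne2 differed between the time points after SAH, by -2.33 on the log2 scale from SAH 1d to SAH 7d (edgeR, adjusted p = 0.0117). The direct comparison of the SAH groups is the test of that difference.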

How the results depend on the processing

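The 28 calls of SAH 1d versus sham became 11 with all 18 libraries in 1 fit, 2 higher and 9 lower. These are 13.8% of the members against 13.3% of all genes. The calls became 17 with limma on log2(FPKM + 1) and no filter (21.25% against 16.4%). With each library left out they ranged from 18 to 33, with 18 without sham-4, without sham-5 and without sham-6. The 18 calls are 22.5% of the members, against 19.9%, 19.2% and 19.1% of all genes in those fits. The 33 calls, without sham-1, are 41.25% of the members against 26.3% of all genes. Of the 28 calls, 17 were kept with each library left out and 10 in all 25 alternatives, and the weakest was Kcnn1, kept with 2 of 12 libraries left out, then Kcna7, Kcnab1 and Kcnh3, each with 3, Kcnn2 with 4, Kcnt2 with 5, Kcnj3 with 7, Kcnh1 and Kcnip1 with 8, and Kcnj4 with 11. DESeq2 called 36, where it called 30.3% of all genes, and voom with quality weights 41, where it called 35.3%. On the FPKM scale the median over all tested genes was 0.11 in place of 0.01, and rises made up 5 of 19 calls in place of 4 of 28.

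The 1 call of SAH 7d versus SAH 1d became 5 with DESeq2 (6.25% of the members against 5.49% of all genes). It became 13 with voom, 10 higher and 3 lower (16.25% against 14.7%). With SAH 1d-3 and SAH 7d-5 both left out it became 11 (13.75% against 13.6%). Without SAH 1d-4 and SAH 1d-6 it became 0, where 0.38% of all genes were called. With each library left out it ranged from 1 to 3, with 3 without SAH 7d-5 (3.75% against 8.38%). The 0 calls of SAH 7d versus sham became 2 with DESeq2 (2.5% of the members against 2.49% of all genes). They became 2 with DESeq2 without SAH 7d-5 (2.5% against 2.94%), and were 0 to 0 with each library left out. The causes of these moves were not tested.

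Deviations of same-numbered libraries correlated above 0.1 in 1, 1 and 2 of 6 pairs in the 3 comparisons. So few pairs cannot settle whether the numbers pair the rats. With the replicate block, 24 members were called at SAH 1d versus sham, which is 30.0% against 21.6% of all genes. That fit called 0 members at SAH 7d versus SAH 1d (0.16% of all genes) and 0 at SAH 7d versus sham. No named call reversed in any alternative. Members under 1 CPM, such as Kcna7, rest on few counts.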
